A study of Mus musculus with 27 samples.

Results

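Hepatic stellate cells taken 72 h after CCl4 were compared between mice at the end of a course of injections (chronic 72 h, 8 injections) and mice injected once (acute 72 h, 1 injection). Carbon tetrachloride (CCl4) is a toxin that hepatocytes turn into a reactive radical, and it kills the hepatocytes around the central veins. The comparison took 8 of the 27 libraries of the series, 4 per group, chosen by their labels alone, and every gene of the count table entered it. All mice were male Balb/c. Acute mice were injected at 10-12 weeks of age, and chronic mice began at 8-10 weeks and were injected semi-weekly over 4 weeks, in both cases into the peritoneum with 0.5 µL of CCl4 per g of body weight in mineral oil. Age at collection, the number of oil injections and the number of CCl4 injections differed together and cannot be told apart. The 4 healthy libraries came from untreated mice of 10-12 weeks that received no oil. Cells were sorted by the ultraviolet fluorescence of their stored retinoid, which keeps cells that still hold retinoid droplets and can lose those that have spent them, and RNA was taken without culture.

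In a quiet liver, stellate cells store vitamin A as retinyl esters and lie in the space between hepatocytes and the sinusoidal endothelium. After injury they divide, gain contractile filaments and lay down collagen, and when the injury stops part of them return to a state close to the original one. A first dose meets resting cells, whereas the last of a series of doses meets cells that have been through this cycle before and a liver that already holds scar matrix and infiltrating leukocytes. The comparison at a fixed hour sets these settings side by side. No library was taken just before the last dose, so a difference already present then and a different response to that dose cannot be told apart.

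The label of the cells was checked against 10 stellate cell genes, among them Lrat, Des, Pdgfrb, Reln, Hgf, Lhx2, Hand2 and Colec11. Their summed level was 6183-7978 CPM (a gene's counts relative to the TMM-scaled size of its library) in acute 72 h libraries, 5904-8363 CPM in chronic 72 h libraries and 11275-12721 CPM in healthy libraries. Only Des was called different between the injured groups. Genes of other cells were present and differed in level. The sum of 10 macrophage genes was 581, 502, 308 and 579 CPM in acute 72 h replicates 1 to 4 and 1975, 2659, 988 and 2265 CPM in chronic 72 h replicates 1 to 4, with 8 of the 10 called higher. Sums were also higher, with no overlap, for 10 endothelial genes (45.0-138 against 198-289 CPM), 5 B cell genes (8.41-25.1 against 37.4-116 CPM), 6 cholangiocyte genes (131-183 against 254-842 CPM) and 10 genes of mesothelial cells and portal fibroblasts (150-560 against 595-1178 CPM). Spp1 made up most of the cholangiocyte sum (means of 137 CPM in acute and 403 CPM in chronic libraries). Mfap4 (60.3 and 490 CPM) and Eln (223 and 285 CPM) made up most of the mesothelial and portal fibroblast sum. Of the endothelial genes 5 were called higher and of the B cell genes 2, and 0 of either when chronic replicates 1 and 2 were left out. The sum of 5 smooth muscle genes was lower with no overlap (555-864 against 283-357 CPM, and 453-597 CPM in healthy libraries). Des, which is also among the stellate genes, made up most of it, with a mean of 657 CPM in acute and 286 CPM in chronic libraries, and was the only one of the 5 called. The sum of 10 hepatocyte genes overlapped (802-1934 against 1795-3316 CPM), as did those of Kupffer cell (41.0-187 against 178-786 CPM), monocyte (21.8-29.4 against 21.5-59.0 CPM), dendritic cell (46.0-50.1 against 38.2-97.3 CPM), and T and NK cell genes (4.72-9.66 against 2.96-13.4 CPM). Of 5 adipocyte genes, Adipoq, Cfd and Retn were at 0 in all 8 libraries. In bulk samples, fewer cells of a type and less RNA per cell cannot be told apart.

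Total counts were 11.2-12.6 M in the acute 72 h libraries, 7.11 and 6.52 M in chronic 72 h replicates 1 and 2, and 12.6 and 13.03 M in replicates 3 and 4, so lower depth occurred in 1 of the groups only. Of 18758 genes tested, 959 (5.11%) were higher and 752 (4.01%) lower in chronic than in acute 72 h libraries, at an adjusted p below 0.05 in edgeR's quasi-likelihood test and a change above 2-fold. With chronic replicates 3 and 4 alone, in a fit of these and the 4 acute 72 h libraries, these counts were 448 and 324. The libraries of the 2 groups did not overlap in 4152 genes (22.1%), and in 1532 of the 1711 called genes (89.5%). The median log2 fold change over all genes tested was -0.03, with the 5th and 95th percentiles at -1.50 and 1.94. The first principal component of the 8 libraries held 35.97% of the variance and separated the groups, with acute libraries between -43.0 and -23.8 and chronic libraries between 27.1 and 33.5.

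**Figure D1:**
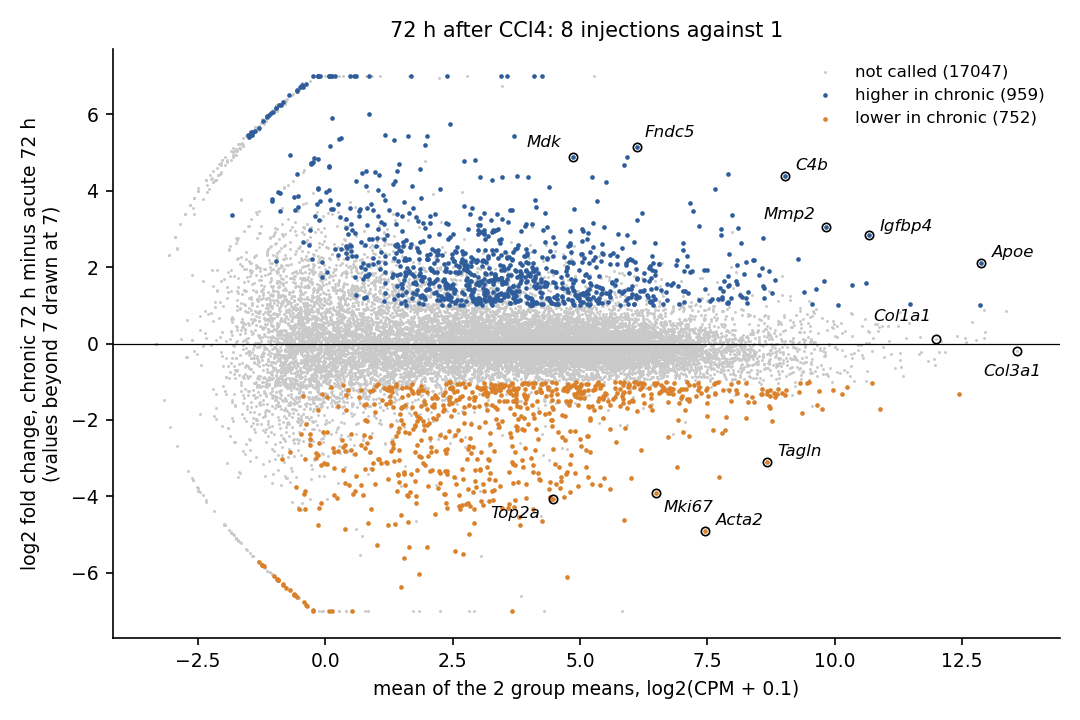
Each point is 1 of the 18758 genes tested, with the mean of both group means on the horizontal axis as log2(CPM + 0.1) and the log2 fold change of chronic 72 h over acute 72 h on the vertical axis, drawn at 7 where it was larger in size. The 959 genes called higher are blue, the 752 called lower orange, and Col1a1 and Col3a1 lie near 0 among the most abundant transcripts.

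Genes of cell division were lower after repeated injury in nearly all members of the mitosis list and most of the replication list. Of 43 genes of mitosis 42 were lower in chronic 72 h cells and none was higher, with a median log2 fold change of -3.78, and of 37 genes of DNA replication 26 were lower and none higher, with a median of -2.12. The remaining member of the mitosis list, Birc5, which codes for the inhibitor survivin of the chromosomal passenger complex, was at 3.9, 3.29, 11.7 and 63.4 CPM in acute and 5.07, 5.86, 1.32 and 10.4 CPM in chronic libraries and was not called (log2 fold change -1.86, adjusted p = 0.0881). Mki67, the nuclear antigen of cycling cells (chr7:135689784-135716361, GRCm38, as are the positions that follow), was at 159, 129, 178 and 206 CPM in acute 72 h replicates 1 to 4 and at 16.4, 11.9, 8.56 and 7.68 CPM in chronic 72 h replicates 1 to 4. The lowest acute library was far above the highest chronic library, and the log2 fold change was -3.92 ± 0.64 (SE, adjusted p = 1.89e-04), or 15.2-fold lower. In healthy libraries the gene had 4.59-26.2 CPM, a range that contains all 4 chronic libraries.

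Top2a, the topoisomerase that untangles chromosomes before they part, had 26.1, 32.6, 47.5 and 59.4 CPM in acute and 2.8, 3.57, 1.32 and 2.27 CPM in chronic libraries (log2 fold change -4.07 ± 0.55, adjusted p = 2.26e-05). Cdk1, the kinase that drives entry into mitosis, had 38.7, 44.2, 42 and 52.8 CPM in acute and 7.6, 7.14, 7.55 and 8.3 CPM in chronic libraries (-2.54 ± 0.31, adjusted p = 7.65e-06). The chronic libraries of Cdk1 were close to one another and far below every acute library. Its partner cyclins were lower as well, Ccnb1 with 23.8, 20.8, 63.9 and 73.4 against 3.33, 1.57, 2.1 and 6.03 CPM (-3.78 ± 0.68, adjusted p = 5.52e-04), Ccnb2 by -3.89 on the log2 scale (adjusted p = 0.00153) and Ccna2 by -3.51 (adjusted p = 5.25e-06). Plk1, the polo-like kinase of spindle assembly, had 26.9, 24.6, 57.1 and 50.03 CPM in acute and 1.87, 2.71, 1.01 and 4.15 CPM in chronic libraries (-4.01 ± 0.88, adjusted p = 0.0031).

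Parts of the spindle, the kinetochore and the cleavage furrow moved the same way. The spindle assembly factor Tpx2 differed by -3.80, the kinetochore scaffold Knl1 by -4.07, the passenger complex subunit Cdca8 by -3.80, the microtubule proteins Ckap2 and Ckap2l by -4.01 and -3.71, and the cytokinesis genes Racgap1, Prc1 and Anln by -3.72, -3.52 and -2.44 on the log2 scale. All of these were called, with adjusted p between 4.25e-06 (Anln) and 4.47e-04 (Knl1). Against healthy cells, acute 72 h libraries were called higher for each of the genes of mitosis named here, by log2 fold changes between 2.13 (Anln) and 5.89 (Ccnb2). Chronic 72 h libraries were compared with healthy ones for the 13 of them on the mitosis list, and edgeR called 0, with 2 at an unadjusted p below 0.05. Their log2 fold changes lay between -0.79 for Knl1 and 2.0 for Ccnb2.

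Among replication genes the lowest adjusted p belonged to subunits of the replicative helicase. Mcm2 had 107, 90.4, 87.6 and 101 CPM in acute and 27.2, 22.4, 16.1 and 17.3 CPM in chronic libraries, a log2 fold change of -2.22 ± 0.17 (adjusted p = 2.84e-08). Mcm6 had 49, 32, 45.4 and 47 CPM in acute and 5.6, 5.14, 3.42 and 4.47 CPM in chronic libraries (-3.22 ± 0.30, adjusted p = 3.05e-07). Neither gene overlapped between the groups, and Mcm7 and Mcm4 were lower, at -1.43 and -1.45 on the log2 scale. Mcm2 also lay below healthy cells in chronic libraries (-1.08 on the log2 scale, called) and above them in acute libraries (1.14, called). Pcna, the sliding clamp of DNA polymerase, was at 31.1, 43.2, 54.9 and 44.5 CPM in acute and 20.7, 33.1, 22.7 and 36.8 CPM in chronic libraries, which overlapped (log2 fold change -0.62, adjusted p = 0.101). When chronic replicates 1 and 2, the libraries of lower depth, were left out, 34 mitosis and 23 replication genes were called lower.

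The bases before the start sites of the lower genes of these lists were searched for motifs known from cell cycle promoters. Nearly all members of the mitosis list and most of the replication list were lower. The shares below therefore describe lists of known cell cycle genes and do not test what changed between the groups. RefSeq promoters (GRCm38.p6, 250 bases before to 50 bases after each start) were found for 34 of the 42 mitosis genes that were lower, with 36 promoters, and for 22 of the 26 replication genes, with 24. The CCAAT box, bound by the factor NF-Y, was searched as CCAAT on both strands, and the cell cycle genes homology region, bound by the MuvB complexes, as TTTGAA or TTTAAA on both strands. A CCAAT box was found in 77.8% of the mitosis promoters and 70.8% of the replication promoters, against 37.4% of all 32851 promoters and 37.1% of the promoters of genes tested. A homology region was found in 77.8% of the mitosis and 29.2% of the replication promoters, against 27.6% of all and 20.3% of those of genes tested. Both occurred together in 69.4% of the mitosis promoters and 20.8% of the replication promoters, against 10.7% of all and 7.73% of those of genes tested. For E2F sites (TTTGGCGC, TTTCGCGC, TTTCCCGC or TTTGCCGC, both strands), the shares were 45.8% of the replication promoters, 2.78% of the mitosis promoters, 2.26% of all and 3.67% of those of genes tested. A TTTAAA match reads the same on either strand and was counted once, and E2F matches can overlap one another. These matches are letters in a window and not measured binding. The following stretches end with the last base before the start site and show the motifs in capitals, CCAAT boxes and homology regions in the first 5 and E2F sites in the last. Capitals also mark the same motifs where they lie on the other strand and so read as the reverse complement.
Cdk1 (chr10:69352913-69353032, minus strand): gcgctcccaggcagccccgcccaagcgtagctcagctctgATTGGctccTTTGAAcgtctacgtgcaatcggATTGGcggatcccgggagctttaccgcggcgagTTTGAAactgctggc
Ccnb1 (chr13:100786487-100786606, minus strand): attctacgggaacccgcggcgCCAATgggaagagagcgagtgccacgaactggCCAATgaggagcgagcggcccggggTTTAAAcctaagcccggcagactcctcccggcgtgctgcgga
Plk1 (chr7:122159315-122159434, plus strand): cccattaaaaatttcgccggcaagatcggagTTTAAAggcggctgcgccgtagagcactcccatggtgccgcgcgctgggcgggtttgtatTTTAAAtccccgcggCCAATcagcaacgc
Top2a (chr11:99024190-99024309, minus strand): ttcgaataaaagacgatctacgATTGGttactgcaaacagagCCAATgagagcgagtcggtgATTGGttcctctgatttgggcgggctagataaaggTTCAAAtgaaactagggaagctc
Ccnb2 (chr9:70421555-70421674, minus strand): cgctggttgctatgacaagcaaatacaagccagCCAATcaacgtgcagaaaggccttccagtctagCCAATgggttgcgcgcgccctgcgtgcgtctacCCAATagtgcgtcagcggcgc
Mcm6 (chr1:128359706-128359825, minus strand): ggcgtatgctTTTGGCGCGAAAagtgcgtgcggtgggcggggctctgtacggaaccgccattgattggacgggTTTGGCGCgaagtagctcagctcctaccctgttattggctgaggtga
Cdk1, Ccnb1, Plk1 and Top2a are shown because each has both motifs within 120 bases of its start, Ccnb2 because it has 3 CCAAT boxes in a row, and Mcm6 for its E2F matches.

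Some genes that hold cells out of the cycle were higher, but most of their list was not called. Of 23 cell cycle brakes and p53 targets, 4 were higher, 1 was lower and 18 were not called, with a median log2 fold change of 0.16. The log2 fold change was positive for 14 of them and negative for 9. Over all genes tested, 5.11% were higher and 4.01% lower. Cdkn1c, which codes for the kinase inhibitor p57, had 13.4, 15.7, 17.8 and 21.3 CPM in acute and 96, 95.9, 84.9 and 107 CPM in chronic libraries, a difference of 2.49 ± 0.33 (adjusted p = 1.68e-05). Acute libraries were below healthy ones for this gene (-1.17, called) and chronic libraries above (1.33, called). Gadd45a, a growth arrest gene induced by DNA damage, had 16.1, 20.4, 28 and 24.2 against 84.5, 99.3, 124 and 107 CPM (2.22 ± 0.28, adjusted p = 1.16e-05). Sesn1, a sestrin that restrains mTORC1, and Ccng2, an unusual cyclin of resting cells, were both higher by 1.36. Rbl1, the pocket protein p107, itself an E2F target, was lower, at -1.65. Cdkn1a (p21) was at 35.7, 43.7, 2.76 and 23.7 CPM in acute and 24.5, 11.6, 11.5 and 5.17 CPM in chronic libraries and was not called.

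Genes of the contractile apparatus were also lower after repeated injury. Of 24 genes 13 were lower and none was higher, with a median log2 fold change of -1.23. Acta2, the smooth muscle actin used to mark activated stellate cells (chr19:34241090-34255590), was at 212, 621, 256 and 275 CPM in acute 72 h replicates 1 to 4 and at 6.27, 4.0, 2.49 and 32 CPM in chronic 72 h replicates 1 to 4 (-4.91 ± 0.80, adjusted p = 2.11e-04). The groups did not overlap, but chronic replicate 4 stood above the other chronic libraries, and with replicates 3 and 4 alone the adjusted p was 0.113. In healthy libraries Acta2 was at 1.09-6.93 CPM, and chronic 72 h libraries were not called different from them (log2 fold change 1.85), whereas acute ones were higher by 6.76.

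Tagln, an actin cross-linker of smooth muscle, had 685, 1394, 466 and 387 CPM in acute and 43.7, 59.3, 60.3 and 176 CPM in chronic libraries (-3.11 ± 0.50, adjusted p = 1.53e-04). Tpm4, a tropomyosin, had 1067, 1326, 1184 and 1238 against 349, 344, 378 and 516 CPM (-1.60 ± 0.24, adjusted p = 6.15e-05). Every acute library of Tpm4 was more than 2-fold above every chronic library. Actn1, the alpha-actinin of focal adhesions, was lower, at -1.67, and Des, the intermediate filament protein desmin that stellate cells of rodents contain at rest, was at -1.20 on the log2 scale. Tpm4 and Actn1 were above healthy levels in acute libraries (by 1.06 and 1.88, both called) and not called against healthy in chronic libraries (-0.54 and 0.21). Without chronic replicates 1 and 2, 5 contractile genes were called lower. The sum of smooth muscle genes was also lower in the same libraries, as given above. Of its members, Cnn1 (calponin) differed by -2.85 (adjusted p = 0.0518) and Myh11, the smooth muscle myosin heavy chain, by -0.94 (adjusted p = 0.178), and neither was called. The part of smooth muscle cells in the contractile results was not tested.

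**Figure D2:**
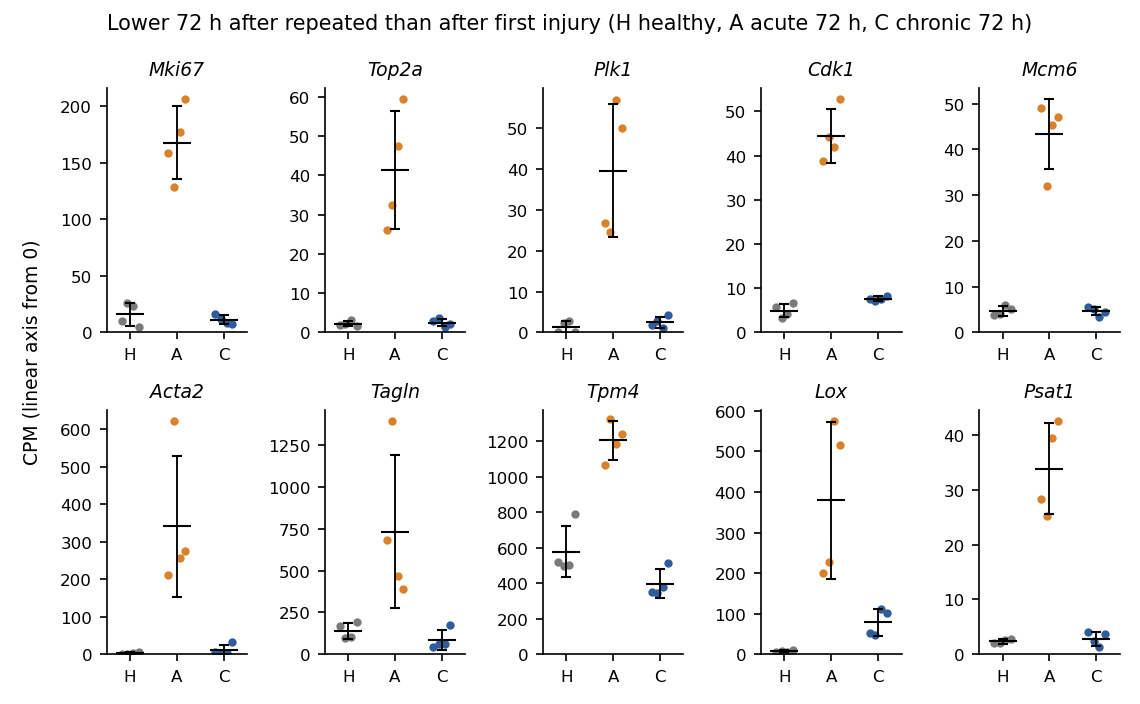
Points are the CPM of single libraries on linear axes from 0, for healthy (H, grey), acute 72 h (A, orange) and chronic 72 h (C, blue) cells, and bars give the mean ± SD of 4 libraries. For all 10 genes the acute libraries lie above every chronic library, and for Mki67, Top2a and Cdk1 the chronic libraries lie at or near the healthy ones.

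The main fibrillar collagens did not share this difference. Col1a1 (chr11:94936224-94953042) was at 2346, 2264, 5094 and 5951 CPM in acute and 4676, 2928, 5299.5 and 4008 CPM in chronic libraries, and the log2 fold change was 0.11 ± 0.34 (adjusted p = 0.874). Col1a2, the second chain of type I collagen, differed by 0.07 ± 0.25, and Col3a1 (type III) by -0.19 ± 0.24. The groups overlapped for all 3, and acute replicates 1 and 2 were well below acute replicates 3 and 4. These p-values miss the threshold and do not show equal levels, since the 95% limits of the Col1a1 estimate were -0.55 and 0.77 on the log2 scale. Both groups were far above healthy cells, acute by 4.09 and chronic by 4.20 for Col1a1, and by 2.29 and 2.10 for Col3a1 (all called).

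Of 20 collagens in the list of fibrillar and associated types, 5 were higher after repeated injury and 1 was lower, with a median log2 fold change of 0.09. The list also holds collagens that are not fibrillar, and of the called members named below only Col27a1 is. Col15a1, which links basement membranes to the collagen fibrils beneath, had 6.998, 3.55, 7.4 and 8.67 CPM in acute and 32.7, 32.3, 47.4 and 31.1 CPM in chronic libraries (2.43 ± 0.36, adjusted p = 7.08e-05). Col8a2 was higher by 1.58, Col27a1, a fibrillar collagen of cartilage, by 1.18, and Col6a1, a chain of the beaded filament collagen, by 1.01. The difference of Col6a1 lies at the 2-fold limit, and its call was lost when acute replicate 1 or 2 or chronic replicate 1 or 3 was left out. Col8a1, the other chain of type VIII collagen, went down while Col8a2 went up. It had 411, 311, 605 and 630.5 CPM in acute and 130.2, 116, 116 and 144 CPM in chronic libraries (-1.95 ± 0.28, adjusted p = 4.26e-05). The count of higher collagens was 3 without acute replicate 1 or 2 or chronic replicate 1, and 1 without both chronic libraries of lower depth.

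Enzymes that mature and cross-link collagen were more often lower, 5 of 25 against 1 that was higher, with a median of -0.72. Lox, the lysyl oxidase that starts collagen and elastin cross-links, had 200.4, 227, 574 and 517 CPM in acute and 52.9, 46.9, 112 and 103 CPM in chronic libraries (-2.27 ± 0.44, adjusted p = 9.90e-04). The chronic libraries were still above the healthy ones (5.62-10.1 CPM, log2 fold change 3.41, called). Its relatives Loxl2 and Loxl4 were lower, at -1.55 and -1.43 on the log2 scale, and so was P4ha2, a prolyl hydroxylase of procollagen (-1.56). Loxl1, the relative that acts on elastic fibres, was higher by 1.07 (215, 159, 198 and 225 against 379, 314, 429.8 and 552 CPM), a call that was lost without acute replicate 2 or chronic replicate 4. Calls of this list fell from 5 to 1 with chronic replicates 3 and 4 alone.

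Several genes of matrix breakdown were higher. Of 28 matrix proteases 7 were higher and 1 was lower, with a median of 0.69. Mmp2, the gelatinase that cleaves denatured and type IV collagen (chr8:92827291-92853420), had 166, 136, 235 and 248 CPM in acute 72 h replicates 1 to 4 and 1633, 1412, 2029 and 1430.5 CPM in chronic 72 h replicates 1 to 4. The lowest chronic library was far above the highest acute library, and the log2 fold change was 3.05 ± 0.24 (adjusted p = 3.13e-08). Acute libraries were not called against healthy ones (-0.90) and chronic libraries were higher (2.16). Ctsk, the cathepsin that cleaves collagen in acid compartments, had 32.4, 43.3, 34.3 and 38.6 against 102, 94.1, 148 and 213 CPM (1.91 ± 0.25, adjusted p = 1.47e-05), and Mmp11 was higher by 1.27. Ctss, a cathepsin of antigen-presenting cells, was higher by 2.29, and the macrophage genes that were higher in the same libraries are given above. Their part in the Ctss result was not tested. Plau, the urokinase that activates plasminogen, was the member that was lower (-1.47 ± 0.39, adjusted p = 0.0114).

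Of 11 protease inhibitors 2 were higher, Serpine2 (protease nexin 1) and Serpinf1 (the anti-angiogenic factor PEDF), and 1 was lower. Serpine2 had 12.3, 16.7, 45 and 62.7 CPM in acute and 167, 148, 346 and 487 CPM in chronic libraries (3.07 ± 0.52, adjusted p = 3.01e-04). Serpinf1 differed by 2.62. Timp1, the secreted inhibitor of metalloproteinases, varied from 1.68, 47.9, 21.2 and 29.3 CPM in acute libraries to 7.2, 8.43, 9.49 and 19.98 CPM in chronic ones and was not called (-1.14, adjusted p = 0.374).

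Of 39 proteoglycans and matrix glycoproteins 6 were higher and 1 was lower. Mfap4, a microfibril protein, had 18.3, 13.2, 82 and 128 CPM in acute and 381, 324, 479 and 778 CPM in chronic libraries (3.02 ± 0.64, adjusted p = 0.00249), and Mfap2 was higher by 1.24, a call lost without chronic replicate 4. Without chronic replicates 1 and 2, Mfap4 was not called (adjusted p = 0.103), and 4 members of the list were higher and 1 lower. Sparcl1, a secreted relative of osteonectin, had 601, 771, 605 and 659 against 2023, 1949, 2151 and 1539 CPM (1.54 ± 0.14, adjusted p = 1.75e-07). Efemp1, a fibulin, was higher by 1.45, yet below healthy cells in both groups (-2.51 in acute and -1.05 in chronic libraries, both called). Vcan, the large hyaluronan-binding proteoglycan versican, was lower, at -1.39. Mfap4 is also in the list of mesothelial and portal fibroblast genes, whose sum was higher in the same libraries. Mfap4 itself (means of 60.3 CPM in acute and 490 CPM in chronic libraries) was a large share of that rise, so the sum is not a separate measure. Of 9 members of that list tested, 4 were called higher, Mfap4 among them, and 0 lower. The part of such cells in the result was not tested.

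The basement membrane list was split, with 3 of 19 genes higher and 3 lower. Lamb3 (a laminin chain of epithelia) was higher by 2.15 and Lamc3 by 3.03, whereas the laminin alpha chains Lama5 and Lama1 were lower, at -1.83 and -1.16. Col4a1, the main chain of the network collagen, was at 1959, 1799, 1576 and 1739.5 CPM in acute and 1036, 672, 1146 and 703 CPM in chronic libraries. The groups did not overlap, and at -0.99 ± 0.24 (adjusted p = 0.00733) the change stopped just short of 2-fold. The call of Lama1 was lost without acute replicate 1 or 2 or chronic replicate 2 or 4, and the count of lower members was 1 without acute replicate 1 or chronic replicate 2 or 4 and 0 without chronic replicates 1 and 2 together.

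**Figure D3:**
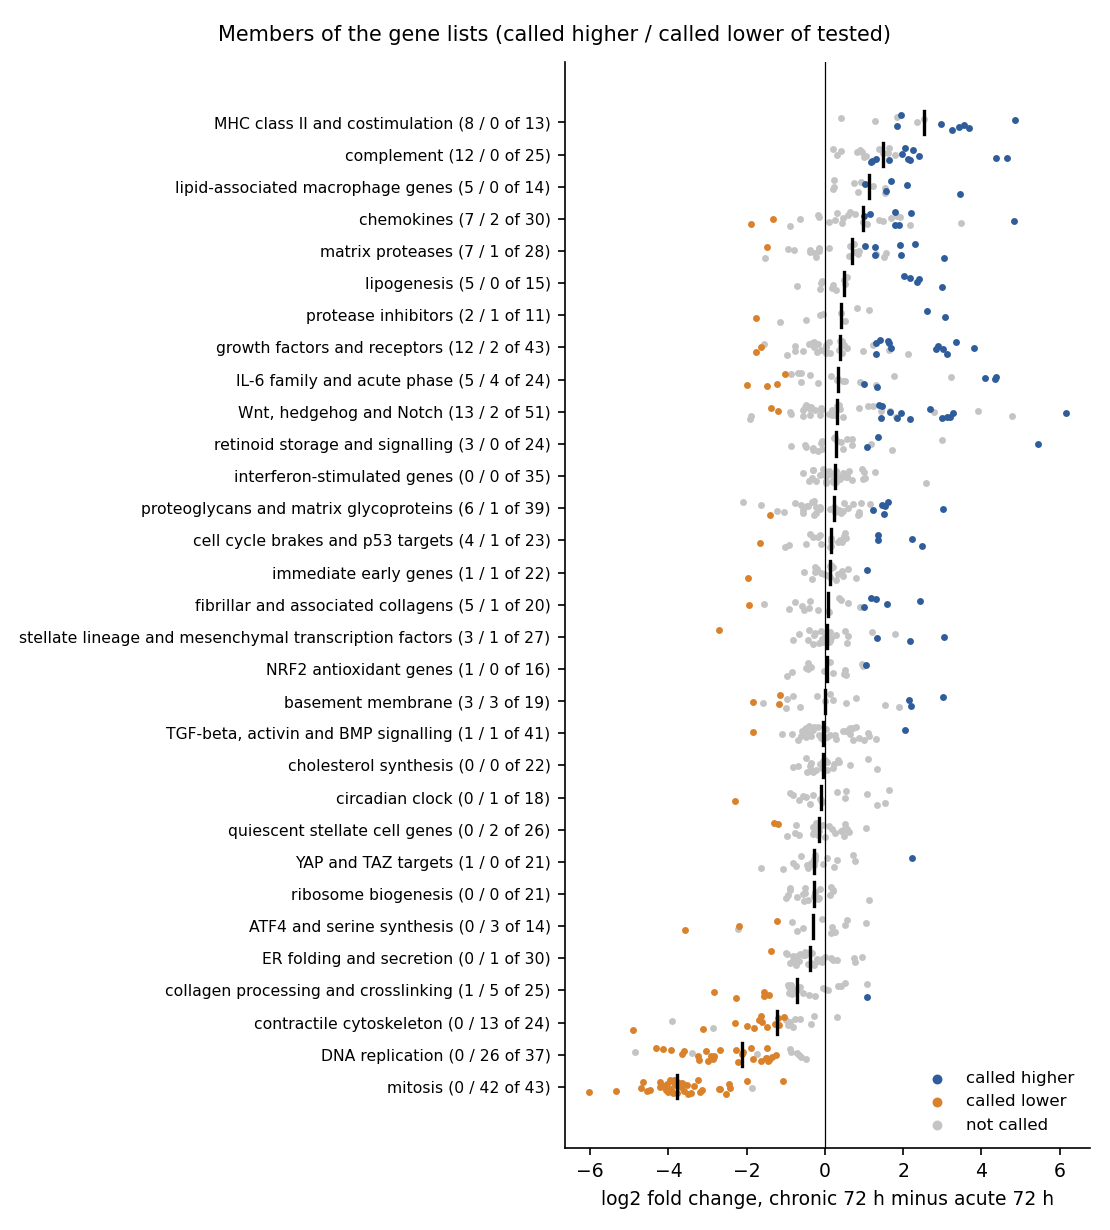
Each row is a gene list, each point the log2 fold change of chronic 72 h over acute 72 h of 1 member, and the black bar the median; blue and orange points were called higher and lower, and the numbers beside each name give the genes called higher and lower and the genes tested. Mitosis (-3.78), DNA replication (-2.12) and contractile genes (-1.23) have the lowest medians and MHC class II (2.53) and complement (1.49) the highest.

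Secreted growth regulators were more often higher than lower. Of 43 growth factors and receptors 12 were higher and 2 lower, with a median log2 fold change of 0.39. Igfbp4, which binds insulin-like growth factors, had 369, 245, 519.8 and 474 CPM in acute and 2469, 2059.9, 3016 and 3980.0 CPM in chronic libraries (2.84 ± 0.26, adjusted p = 3.05e-07). Gas6, the ligand of the receptors Axl and Mertk, had 23.6, 35.6, 45.7 and 75 against 325, 333, 719.6 and 461 CPM (3.35 ± 0.40, adjusted p = 6.82e-06). For both genes the acute libraries lay below the mean of healthy cells (1047 and 82.4 CPM) and the chronic libraries above it. Nrp2, a neuropilin, was higher by 2.90 and Vegfa, the angiogenic growth factor, by 1.70. The 2 that were lower were Ereg, a ligand of the EGF receptor (116, 303, 201 and 199.9 against 50.9, 52.4, 39.3 and 100.4 CPM, -1.75), and Vegfd, a lymphangiogenic factor (-1.64), and the call of Vegfd was lost without any 1 of 5 libraries (acute replicates 3 and 4 and chronic replicates 1 to 3). Without chronic replicates 1 and 2, 5 members of the list were higher and 0 lower, and 0 were lower with depth class as a term.

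Of 51 genes of Wnt, hedgehog and Notch signalling 13 were higher and 2 lower. The ligands Wnt5a and Wnt5b, which act mainly outside the beta-catenin route, were higher, Wnt5b with 1.77, 1.47, 2.19 and 3.79 CPM in acute and 16.4, 16.7, 19.4 and 21.1 CPM in chronic libraries (2.98 ± 0.42, adjusted p = 4.07e-05) and Wnt5a by 1.84. The secreted modulators Dkk3 (1.67 ± 0.17, adjusted p = 1.36e-06) and Sfrp1 (1.94) were higher as well. Ccn4, a matricellular protein induced by Wnt1, and Dhh, the desert hedgehog ligand, were lower, at -1.19 and -1.39. Without chronic replicates 1 and 2 the counts were 8 higher and 0 lower. Of 41 genes of TGF-beta, activin and BMP signalling, 1 was higher and 1 lower. The endothelial-type receptor Acvrl1 was at 5.05, 4.94, 3.01 and 9.45 CPM in acute and 28, 19.7, 22 and 24 CPM in chronic libraries (2.06), and the BMP-binding protein Bmper at 30.6, 36.2, 33 and 30.5 against 9.73, 10.00, 9.34 and 7.76 CPM (-1.83 ± 0.23, adjusted p = 1.16e-05). The sum of endothelial genes was also higher in chronic libraries, and the part of endothelial cells in the Acvrl1 result was not tested. Among 21 YAP and TAZ targets only Gadd45a was called. Ccn2 (connective tissue growth factor) was at 582, 1224, 1373 and 1383 CPM in acute and 311, 348, 35.8 and 766 CPM in chronic libraries, which overlapped (adjusted p = 0.179).

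Among genes whose log2 CPM averaged 3 or more over the 8 libraries, the largest increases included genes outside the lists. Fndc5, the precursor of the secreted peptide irisin (chr4:129136999-129144593), had 3.45, 3.38, 2.6 and 5.73 CPM in acute 72 h replicates 1 to 4 and 109, 94.1, 156 and 178 CPM in chronic 72 h replicates 1 to 4. The groups were far apart, 35.2-fold (5.14 ± 0.43, adjusted p = 5.65e-08). Mdk, the heparin-binding growth factor midkine, had 1.06, 0.779, 3.58 and 2.17 against 39.1, 31, 64.6 and 89.2 CPM (4.87 ± 0.55, adjusted p = 3.69e-06). Acute libraries were not called against healthy ones for either gene (log2 fold changes -0.10 and -0.09). Larp6, which binds the stem-loop of collagen transcripts and aids their translation, was higher by 3.56, from 2.13, 1.56, 2.93 and 4.26 to 22, 22.7, 45.6 and 38.6 CPM. Inmt, a methyltransferase of indoleamines, had 18, 18.9, 26.3 and 21.2 CPM in acute and 538, 397, 459 and 435 CPM in chronic libraries (4.44 ± 0.36, adjusted p = 3.70e-08), with healthy cells between the groups at 156-228 CPM. Fgl2, a fibrinogen-like protein with prothrombinase and immune-regulating activity, had 17.1, 15.1, 24.1 and 35.4 against 195, 203, 635 and 486 CPM (4.05, adjusted p = 5.69e-06).

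Cyp2e1, the cytochrome that activates CCl4 in hepatocytes, had 2.48, 1.9, 8.21 and 5.81 CPM in acute and 56.1, 58.4, 75.4 and 155 CPM in chronic libraries (4.22 ± 0.74, adjusted p = 4.26e-04). The sulfotransferase Sult2a8 was higher by 3.76. Both are transcripts of hepatocytes, and Alb, the leading hepatocyte marker, was at 285, 279, 841 and 362 CPM in acute and 705, 779, 585 and 1283 CPM in chronic libraries, which overlapped (log2 fold change 0.92, adjusted p = 0.473). Of the 10 hepatocyte markers 2 were called higher, Cyp2e1 itself and Ttr. All 10 had a positive log2 fold change, with a median of 1.25. The count of calls was 5 in a fit of the 2 groups only and 1 with no filter on low counts. The part of hepatocyte RNA in these results was not tested.

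About as many complement genes were called higher as were not called. Of 25 complement genes 12 were higher and none lower, and all 25 had a positive log2 fold change, with a median of 1.49. C4b, the fourth component of the classical pathway (chr17:34728380-34743882), had 67.1, 46.5, 40.4 and 37.2 CPM in acute and 912, 1051, 1474 and 545 CPM in chronic libraries (4.38 ± 0.34, adjusted p = 2.84e-08), or 20.8-fold. C4a, its near-identical neighbour, was higher by 4.67, and reads of this pair may have been divided between them. The proteases of the first component were higher by less, C1s2 by 2.17, C1ra by 1.19 and C1rb by 1.21. C3, the component that all routes share, had 89.5, 58.6, 212 and 96.1 against 619.9, 482, 674 and 230.2 CPM (2.14 ± 0.47, adjusted p = 0.00314). Without chronic replicates 1 and 2, 5 complement genes were called.

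Of 13 genes of MHC class II and costimulation 8 were higher and none lower, with a median of 2.53. H2-Ab1, a chain of the class II molecule, had 23.7, 17.7, 24.3 and 17 CPM in acute and 335, 481, 67.9 and 172 CPM in chronic libraries (3.67 ± 0.68, adjusted p = 7.56e-04). The chronic libraries were unequal, replicate 3 being the lowest and replicate 2 the highest, an order that the macrophage sum also had at both ends. H2-Eb1 and H2-Aa were higher by 3.42 and 3.24, H2-DMb1, which helps load peptides, by 3.55, and H2-Ea-ps, annotated as a pseudogene, by 3.72. Cd74, the invariant chain, was at 2.21, 6.15, 0 and 7.51 CPM in acute and 152, 238, 7.32 and 71.2 CPM in chronic libraries, and these ranges overlapped (adjusted p = 0.0186, a call lost without acute replicate 1). The class II master regulator Ciita was at 2.75, 0.866, 1.22 and 0.774 against 10.9, 14.6, 3.66 and 3.53 CPM and just missed the call (adjusted p = 0.0551). Genes of this cluster resemble one another, so that counts of single members are uncertain. Without chronic replicates 1 and 2, 3 of the 13 genes were called.

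Macrophage genes moved with these results. Lyz2, a lysozyme of myeloid cells, had 193, 185, 171 and 335 CPM in acute and 934, 1276, 559.8 and 1342 CPM in chronic libraries (2.22 ± 0.51, adjusted p = 0.0045), Adgre1 (F4/80) was higher by 1.65 and Ptprc (CD45) by 1.78. Healthy libraries held 123-452 CPM for the sum of the 10 macrophage genes, so that every acute library but replicate 3 and every chronic library exceeded the healthy range. The count of macrophage genes called fell from 8 to 2 without chronic replicates 1 and 2 and to 1 with depth class as a term. It was 3 without acute replicate 3 or chronic replicate 2, 4 without acute replicate 2 or chronic replicate 1, and 5 without acute replicate 4. Of the 8 macrophage genes called, C1qa, C1qb and C1qc code for parts of complement. The part of macrophages and B cells in the MHC class II and complement results was not tested, nor was that of hepatocytes in the complement results.

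Of 14 genes that mark lipid-associated macrophages, 5 were higher and none lower. Apoe, the apolipoprotein of lipid transfer, which stellate cells also make, had 3189.6, 3614, 2276 and 2289.6 CPM in acute and 13214, 14271, 8496 and 12817 CPM in chronic libraries (2.10 ± 0.33, adjusted p = 1.10e-04). Gpnmb, a lysosomal glycoprotein, had 13.9, 15.9, 12.4 and 56.2 against 169, 197, 149 and 571 CPM (3.46 ± 0.80, adjusted p = 0.00477). Gpnmb was above healthy cells (0-1.91 CPM) in both groups, by 4.29 in acute and 7.75 in chronic libraries. Spp1 (osteopontin) and Fabp4, a carrier of fatty acids, were higher by 1.56 and 1.68. Spp1 is also a cholangiocyte marker, and without chronic replicate 4 it was not called and 3 genes of the list were.

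Of 30 chemokines and their receptors 7 were higher and 2 lower. The leukocyte receptor Cxcr4 was higher by 2.19, the ligand Ccl3 by 1.89, and Cx3cl1 (fractalkine) had 117, 102, 85.3 and 96.5 against 209, 159.7, 264 and 257 CPM (1.15 ± 0.22, adjusted p = 7.51e-04). The 2 that were lower attract monocytes and neutrophils. Ccl7 had 201, 537, 186 and 211 CPM in acute and 63.9, 82.1, 37.9 and 122 CPM in chronic libraries (-1.89 ± 0.41, adjusted p = 0.00287), and Cxcl1 was lower, at -1.32, a call lost without acute replicate 2 or any 1 of chronic replicates 1 to 3. Without both chronic libraries of lower depth, 2 chemokine genes were higher and 0 lower. Among 35 interferon-stimulated genes 0 were called by edgeR and 0 by DESeq2, with 4 higher and 0 lower at an unadjusted p below 0.05 in edgeR, and their median was 0.27.

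**Figure D4:**
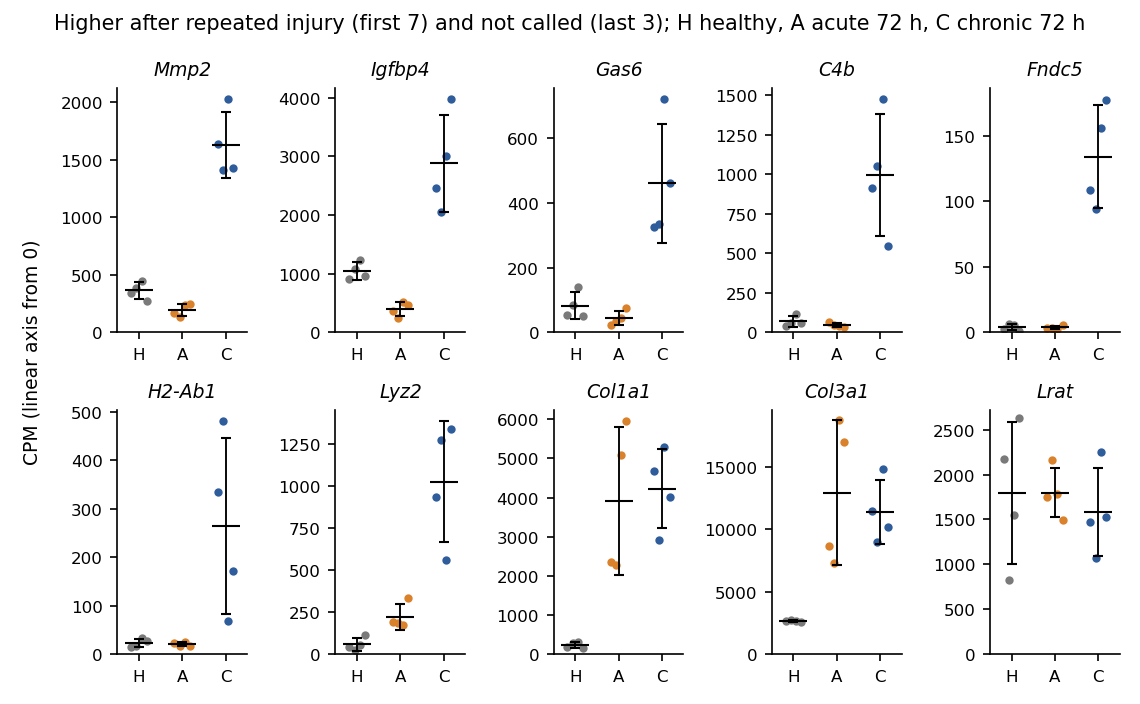
Points are the CPM of single libraries on linear axes from 0, for healthy (H, grey), acute 72 h (A, orange) and chronic 72 h (C, blue) cells, and bars give the mean ± SD of 4 libraries. For Mmp2, Igfbp4, Gas6, C4b, Fndc5, H2-Ab1 and Lyz2 all chronic libraries lie above all acute ones, while the groups overlap for Col1a1, Col3a1 and Lrat.

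The acute phase and IL-6 family list was split, with 5 of 24 genes higher and 4 lower. These counts rest on single libraries, since 3 were higher without acute replicate 1, 2 or 4 or chronic replicate 2, and 1 or 2 were lower without any 1 of acute replicates 1 and 2 and the chronic replicates. Without both chronic libraries of lower depth 1 was higher and 0 were lower. Saa3, a serum amyloid A made outside hepatocytes, had 2.48, 1.3, 0.813 and 0.387 CPM in acute and 14, 24.9, 23.3 and 40.5 CPM in chronic libraries (4.37 ± 0.93, adjusted p = 0.00253). Saa1, a serum amyloid of hepatocytes with a close copy in Saa2, had 1.06, 7.01, 3.5 and 2.4 against 101, 158, 12.5 and 14.9 CPM (4.35, adjusted p = 0.00623). Its level was high in chronic replicates 1 and 2, the libraries of lower depth, and the call was lost with replicates 3 and 4 alone (adjusted p = 0.129). Il6st, the shared receptor gp130, was lower, at -1.23 ± 0.24 (adjusted p = 0.00134), with 1524, 1463, 1277 and 1302 CPM in acute and 635, 486, 842 and 418 CPM in chronic libraries. Nfkbia, the inhibitor of NF-kB, was lower, at -1.03, at the 2-fold limit, and its call was lost without acute replicate 1 or 2 or chronic replicate 1, 2 or 3.

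Few stellate identity and retinoid genes were called between the groups. Of 26 genes of quiescent stellate cells, 2 were lower and none higher, with a median of -0.15. These 2 were Plvap, which forms the diaphragms of fenestrae, with 9869, 11409, 4995 and 5501 CPM in acute and 3787, 3487, 2474 and 3087 CPM in chronic libraries (-1.31 ± 0.24, adjusted p = 5.55e-04), and Adamtsl2, a microfibril protein (-1.21). Reln, the secreted protein reelin, was at 1194, 1209, 871 and 820.3 against 1560.5, 1229, 1408 and 728 CPM and below healthy cells in both groups (-1.36 and -1.09). Gfap, the filament protein of resting stellate cells, was at 14.3, 22.2, 14.1 and 11.3 against 27.1, 23.7, 17.6 and 19.2 CPM and likewise below healthy cells in both (-1.74 and -1.24, called). Lrat, which makes retinyl esters, was at 1747, 2159, 1785 and 1497 against 1474, 1066, 2247 and 1526 CPM. None of these last 3 genes was called between the groups (adjusted p 0.747 for Lrat, 0.437 for Reln and 0.154 for Gfap).

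Of 24 retinoid genes 3 were higher and none lower. Cyp26a1, the hydroxylase that clears retinoic acid and is induced by it, was at 0.354, 0, 0 and 0 CPM in acute and 4.93, 3.14, 6.23 and 2.51 CPM in chronic libraries (adjusted p = 0.00258), and no fold is given against so few counts. Dhrs3, which turns retinal back to retinol, had 151, 203, 118 and 137 against 285, 192, 390.4 and 409 CPM, which overlapped (1.07, adjusted p = 0.0123), and Dgat2, which can also esterify retinol, was higher by 1.36. The call of Dhrs3 was lost without acute replicate 3 or chronic replicate 3 or 4, and that of Dgat2 without acute replicate 1 or 2 or chronic replicate 4. The count of this list was 1 without chronic replicate 4. Among 27 lineage and mesenchymal transcription factors 3 were higher and 1 lower. Sox9, a factor of progenitors and of injured stellate cells, had 9.74, 5.45, 14.1 and 8.83 CPM in acute and 51.1, 53.1, 137 and 73.4 CPM in chronic libraries (3.04 ± 0.39, adjusted p = 1.47e-05), and it is also a cholangiocyte marker. Wt1, a factor of the mesothelium and of septum transversum mesenchyme, had 22.9, 20.3, 18.7 and 26.9 against 84.9, 87.6, 130.2 and 99.7 CPM (2.18 ± 0.28, adjusted p = 1.52e-05), and Prrx1 was higher by 1.32. The sums of mesothelial and portal fibroblast genes and of cholangiocyte genes were higher in the same libraries. Sox9 itself (means of 9.52 and 78.6 CPM) and Spp1 (137 and 403 CPM) made up most of the cholangiocyte sum. Krt19, which was called higher, had a mean of 3.45 CPM in chronic libraries, and Krt7 and Epcam, not called, had 0.90 and 0.83 CPM. The part of these cell types in the Wt1 and Sox9 results was not tested. The stellate lineage factors Lhx2 and Hand2 were not called (-0.31 and -0.15).

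Metabolic lists differed in a few members. Of 15 lipogenesis genes 5 were higher and none lower, led by Lpin1, a phosphatidate phosphatase (2.01 ± 0.27, adjusted p = 2.48e-05), and Scd1, the stearoyl-CoA desaturase, with 36.7, 27.9, 87.4 and 41.6 CPM in acute and 336, 356, 633 and 216 CPM in chronic libraries (2.99 ± 0.49, adjusted p = 2.11e-04). The count was 2 without acute replicate 1, 2 or 4 or chronic replicate 3, 3 without chronic replicate 1, 2 or 4, and 2 without chronic replicates 1 and 2 together. Hepatocytes express these genes too, and the part of hepatocyte RNA was not tested. Of 14 ATF4 targets and serine synthesis genes 3 were lower, and 1 without chronic replicates 1 and 2. Psat1, an enzyme of serine synthesis, had 28.3, 25.3, 39.4 and 42.6 CPM in acute and 4.13, 2.43, 1.25 and 3.6 CPM in chronic libraries (-3.58 ± 0.34, adjusted p = 3.46e-07). Mthfd2, which supplies mitochondrial one-carbon units, and Slc7a11, the cystine importer, were lower, at -2.19 and -1.23. Psat1 was above healthy cells in acute libraries (3.84, called) and not called in chronic ones (0.26).

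Lists with almost no calls by edgeR were cholesterol synthesis (0 of 22, median -0.05, with 1 higher and 1 lower at an unadjusted p below 0.05 and 1 called by DESeq2), ribosome biogenesis (0 of 21, median -0.28, with 0 higher and 8 lower at an unadjusted p below 0.05 and 0 called by DESeq2), ER folding and secretion (0 higher and 1 lower of 30, median -0.37) and NRF2 antioxidant genes (1 higher of 16). At an unadjusted p below 0.05 in edgeR, 2 ER folding genes were higher and 10 lower, and 4 NRF2 genes were higher and 5 lower. DESeq2 called 1 ER folding gene lower and 3 NRF2 genes higher. Few calls in these lists therefore do not show unchanged levels. Of 18 clock genes 1 was called, Per2, with 22, 23.1, 51.3 and 60.2 CPM in acute and 4.67, 9.57, 7.86 and 9.4 CPM in chronic libraries (-2.31, adjusted p = 0.00998). Among 22 immediate early genes, which cell isolation can induce, 1 was higher and 1 lower, and Fos was at 7395, 6914, 6747 and 7252 against 8005, 8886, 7453 and 10314 CPM.

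The study derived its fibrogenic program from healthy, chronic 24 h and chronic 14 d cells, and its initiatory program from healthy and acute 24 h cells together with cultured cells, so that the 72 h libraries did not choose the members of either. Of 172 members of the fibrogenic program that were tested, 13 were higher and 42 lower in chronic than in acute 72 h cells, with a median of -0.65. Of 72 members of the initiatory program 3 were higher and 23 lower, with a median of -0.62. The lowest adjusted p among the lower members of both programs belonged to Psat1. The count of higher fibrogenic members was 5 without acute replicate 1 and 8 without acute replicate 4 or chronic replicate 4. Without chronic replicates 1 and 2, 10 fibrogenic members were higher and 14 lower, and 9 initiatory members were lower.

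The same contrast exists 24 h after the last injection (4 chronic and 3 acute libraries), and it shares no library with the one at 72 h. At 24 h, 2036 genes (10.9%) were higher and 573 (3.05%) lower in chronic libraries. Of the 959 genes higher at 72 h, 545 (56.8%) were also higher at 24 h, which is 26.8% of the 24 h list, and 6 were lower. Of the 752 genes lower at 72 h, 60 (7.98%) were also lower at 24 h, 62 (8.24%) were higher and 630 were not called. Tested directly, the difference between chronic and acute cells was more positive at 72 h than at 24 h for 427 genes (2.28%) and more negative for 1212 (6.46%).

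Both cell division lists belonged to the second kind. The difference of 24 of 43 mitosis genes and of 24 of 37 replication genes was more negative at 72 h and that of 0 more positive. Mki67 was at 7.3, 1.82 and 3.25 CPM in acute and 12.1, 10.6, 1.84 and 1.92 CPM in chronic libraries at 24 h. The change between the 2 hours was -4.56 ± 0.92 on the log2 scale (adjusted p = 0.0022). Of 24 contractile genes 14 moved the same way. Acta2 was at 301, 253 and 149.5 CPM in acute and 289, 1055, 2272 and 2563 CPM in chronic libraries at 24 h, so that the sign of the difference turned by 72 h (-7.63 ± 1.16, adjusted p = 1.78e-04).

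The collagens differed more at 24 h. At that time 16 of the 20 were higher in chronic cells, with a median log2 fold change of 1.91, and the difference of 13 of the 20 was more negative at 72 h. Col1a1 was at 616, 528 and 551 CPM in acute and 3987, 5779, 6302 and 6524 CPM in chronic libraries at 24 h (3.32 on the log2 scale), and its difference changed by -3.21 ± 0.52 (adjusted p = 2.81e-04). Besides Acta2, the most negative changes among abundant genes were those of the matrix genes Fbln2 (-7.14), Cthrc1 (-7.07) and Ccn5 (-6.85) and the neuronal regeneration protein Nrep (-6.82). Of these only Ccn5 was called at 72 h, where it had 37.6, 48.1, 84.9 and 91.5 CPM in acute and 7.33, 2.86, 4.82 and 8.23 CPM in chronic libraries (-3.49).

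The most positive changes among abundant genes were those of Hhip (4.63), Rasd1 (4.62), Inmt (4.57), Tmem100 (4.08) and Syt12 (4.04). Apart from Inmt, none of them was called at 72 h. Hhip, the decoy receptor of hedgehog ligands, was at 334, 309 and 322 CPM in acute and 22.8, 7.69, 6.23 and 7.12 CPM in chronic libraries at 24 h. At 72 h Hhip was at 20.4, 21.3, 11.9 and 11.7 CPM in acute and 20.5, 21.7, 9.73 and 3.29 CPM in chronic libraries. Fndc5 was higher in chronic cells at 24 h (5.34) and at 72 h (5.14), and so were Mdk (4.74 and 4.87), Mmp2 (3.17 and 3.05) and C4b (3.91 and 4.38). The change between the hours was not called for these 4 genes (log2 values between -0.20 for Fndc5 and 0.47 for C4b).

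**Figure D5:**
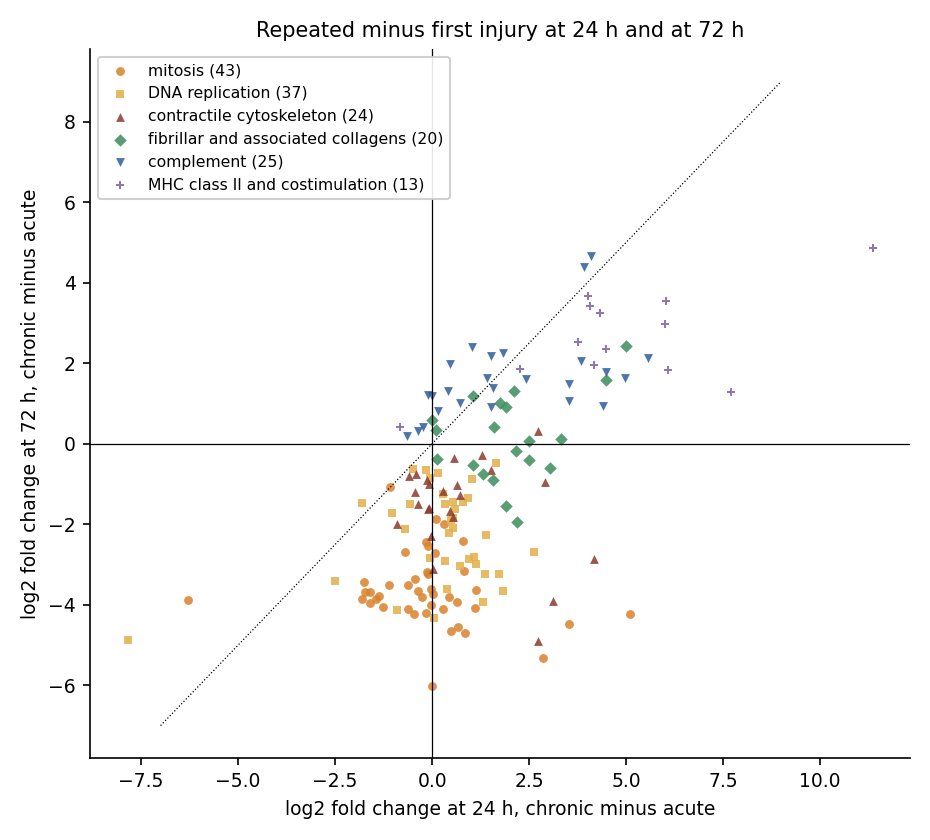
Each point is a gene of 1 of 6 lists, with the log2 fold change of chronic over acute cells at 24 h on the horizontal axis and at 72 h on the vertical axis, and the dotted line marks equal values. Most mitosis, replication and contractile genes lie below the line (Ccnb2, at -6.28 and -3.89, lies above it), collagens spread to the right of 0 but around 0 at 72 h, and complement and MHC class II genes lie above 0 on the vertical axis.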

How the data were processed

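Stellate cell RNA was sequenced in 27 libraries, of which 4 chronic and 4 acute libraries at 72 h were compared, with the 24 h and healthy libraries beside them. The authors trimmed single-end reads, mapped these to GRCm38.p6 by STAR, then ran StringTie, and deposited raw counts per gene; tool versions, strand and the annotation release are not given in the sources used here. Gene symbols were matched from GENCODE M21, for 53274 of 53379 identifiers.

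Counts were fitted with edgeR 4.0.16 (R 4.3.3), with filterByExpr, TMM scaling and 1 quasi-likelihood model over all 27 libraries, and Benjamini-Hochberg adjustment over 18758 genes. A call needed more than a 2-fold change at an adjusted p under 0.05. Fold changes against groups at 3 counts or fewer depend on the prior count of 2. DESeq2 1.42.0, other scalings, filters, depth terms and left-out libraries were alternatives. On simulated counts for this comparison (18298 genes, 200 changed by 2 on the log2 scale), 151 (75.5%) were recovered, with 6 false calls. Replicates differed by 17.0 to 77.2 times counting variance. The study's methods call the sequenced samples biological repeats from individual experiments but do not tie each library to an animal, so p-values measure the spread between these repeats.

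Members and lists were chosen with earlier results of these data known. Named genes were up to 4 called in each direction per list by adjusted p (3 of highest level in lists with few calls, plus genes needed to define a list), the 12 highest and 12 lowest log2 fold changes without overlap among genes whose log2 CPM averaged 3 or more, and the 5 highest and lowest changes from 24 h. Some genes that meet this rule are not reported here. Promoter sequences were taken from RefSeq (GRCm38.p6).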

Additional observations from a re-analysis of the deposited data

Results flagged for a closer look

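Of 286 pairs of a named gene and a group of 4 libraries at 72 h, 12 had 1 library whose gap to its nearest neighbour, as a share of the whole range, exceeded the 95% critical value of Dixon's test. Chance alone flags about 1 in 20 groups. These were C4a in chronic replicate 4 (0.866), Ckap2 in chronic replicate 1 (0.907), Tpx2 in chronic replicate 2 (0.842), Col15a1 in chronic replicate 3 (0.884), Efemp1 in acute replicate 2 (0.882), Actn1 in chronic replicate 2 (0.84), Cyp26a1 in acute replicate 1 (1), Ccn2 in acute replicate 1 (0.859), Nrp2 in acute replicate 3 (0.89), Vegfd in chronic replicate 4 (0.94), Ccl7 in acute replicate 2 (0.879) and Gpnmb in acute replicate 4 (0.837). C4a in chronic replicate 4 was at 43.95 CPM against 126.9-149.5 CPM in the other 3 libraries, and Vegfd lost its call without acute replicate 3 or 4 or chronic replicate 1, 2 or 3. The causes were not tested.

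The chronic-minus-acute difference was tested for a change between 24 h and 72 h by edgeR's quasi-likelihood test. Over all 18758 genes it changed in the positive direction for 427 (2.28%) and in the negative for 1212 (6.46%). Among 143 named genes it changed for 70, 16 in the positive and 54 in the negative direction. Named genes were chosen partly by their 72 h calls and partly as the 5 highest and 5 lowest of this test. The counts among them therefore follow in part from that choice. The changes, as log2 values of the 72 h difference minus the 24 h difference, were positive for Hhip (4.63), Rasd1 (4.62), Inmt (4.57), Tmem100 (4.08), Syt12 (4.04), Cdkn1a (3.67), Cyp2e1 (3.42), Fgl2 (3.01), Cdkn1c (2.69), Scd1 (2.56), Efemp1 (2.01), Gadd45a (1.78), Apoe (1.72), Gfap (1.4955), C1rb (1.31) and C1ra (1.20). The most negative were those of Acta2 (-7.63), Fbln2 (-7.14), Cthrc1 (-7.07), Ccn5 (-6.85), Nrep (-6.82), Vegfd (-5.84), Top2a (-5.18), Lox (-4.64), Mcm6 (-4.58), Gpnmb (-4.57), Mki67 (-4.56), Cdca8 (-4.24), Col8a1 (-4.15), Ckap2l (-3.84), Racgap1 (-3.75), Knl1 (-3.62), Tpx2 (-3.55), Ckap2 (-3.45) and C3 (-3.42). Smaller negative values belonged to Ccl7 (-3.23), Col1a1 (-3.21), Tagln (-3.12), Psat1 (-3.00), Col8a2 (-2.90), Ccna2 (-2.88), Rbl1 (-2.82), Wnt5a (-2.70), Serpine2 (-2.67), Mcm2 (-2.65), Loxl2 (-2.62), Col15a1 (-2.56), Lyz2 (-2.56), Adgre1 (-2.52), Col1a2 (-2.44), Plau (-2.44), Cdk1 (-2.42), Prc1 (-2.41) and Col3a1 (-2.35). The remaining negative values were those of Dhrs3 (-2.33), Anln (-2.28), Mcm7 (-2.24), Actn1 (-2.14), Prrx1 (-2.12), Mcm4 (-1.98), P4ha2 (-1.93), Lama1 (-1.88), Cx3cl1 (-1.85), Vcan (-1.82), Mthfd2 (-1.77), Cxcl1 (-1.77), Ptprc (-1.75), Tpm4 (-1.52), Bmper (-1.26) and Slc7a11 (-1.12). The groups at 24 h held 3 acute and 4 chronic libraries.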

How the results depend on the processing

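Counts of called genes moved by over 1.5 times under few settings. With higher-depth libraries only, a fit of chronic 72 h replicates 3 and 4 and the 4 acute 72 h libraries gave 448 genes higher and 324 lower, and adding the 24 h libraries, without chronic 24 h replicates 1 and 2, gave 593 with a more negative difference at 72 h than at 24 h. Fits of the same groups with their libraries of lower depth gave 1059 higher, 664 lower and 1167 more negative. Depth class as a term gave 611 higher, no fold minimum 1463 lower, and no filter on low counts 791 more negative. A test against a 2-fold minimum gave 169 higher and 194 lower. For the higher-depth fits fewer samples, and for the 2-fold minimum a stricter hypothesis, are part of the setting, and for the others the cause was not tested. Leaving out 1 library gave 706-941 higher, 579-736 lower, 286-589 more positive and 836-1289 more negative. DESeq2 gave 1316 higher and 781 lower.

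Deviations of same-numbered replicates from their group means correlated weakly (0.17, 0.07, 0.06 and 0.11), and those of differently numbered ones lay between -0.18 and 0.07. Each acute replicate correlated best with the chronic replicate of its own number, but chronic replicate 3 correlated best with acute replicate 4. Whether the numbers pair the samples is not settled by these values. A replicate block gave 978 higher and 615 lower, and 421 more positive and 1184 more negative.

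Of 119 named genes called, 53 were called under all 20 alternatives, 66 lost the call under at least 1, and 0 changed direction. Among genes not called, Lrat was at 0.0854 with the higher-depth libraries, and leaving out 1 library gave -0.079 to 0.42 for Col1a1, -0.11 to 0.29 for Col1a2, -0.38 to 0.10 for Col3a1 and -0.53 to 0.0791 for Hhip. Few reads stood behind some calls, since 76 higher genes had 3 counts or fewer in every acute library and 50 lower genes in every chronic library.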
